A study of Mus musculus with 60 samples.

Results

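The deposited H3K9ac peak list of dorsal root ganglia after a peripheral axotomy was set directly against the list after a central axotomy. The SNA list (sciatic nerve axotomy) held 74652 peaks and the DCA list (dorsal column axotomy, a cut of the ascending sensory axons in the spinal cord) held 89647, together 164299 of the 1658065 peaks in the 16 lists of the series. All peaks of both lists on the autosomes, X and Y entered, with a region listed under several summits counted once. A peak with an overlap of 1 bp or more in the opposite list was called shared, and a gene was placed in 1 list only when a peak of that list, and none of the other, overlapped the window of 1 kb on either side of its start site. For 4395 genes no start site was listed, and either gene end stood in for it, so their peak may lie at the far end.

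The animals were C57BL/6 mice, 6 to 8 weeks old, and L4-L6 ganglia were taken 24 hours after surgery. The H3K9ac list of each surgery came from 2 chromatin immunoprecipitation samples, each a pool of ganglia from 10 mice, and the authors pooled both before peaks were called. The 2 control surgeries, laminectomy (Lam, 50667 peaks) and sham surgery on the sciatic nerve (Sham, 50332 peaks), gave the background, because they were compared with each other in the same way. The labels name no transgene or altered allele in any group. With 1 pooled list per surgery no value has a replicate error and no test between the injuries could be made, and the 95% Wilson intervals given with shares cover counting error only.

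H3K9ac is acetylation of lysine 9 on histone H3, a mark placed by acetyltransferases such as GCN5 and PCAF and found mainly at the start sites of active genes and at active enhancers. A sensory neuron of the ganglion has a peripheral branch in the nerve and a central branch that ascends in the dorsal columns. A cut of the peripheral branch is known to switch on a regenerative gene program in the cell body, and a cut of the central branch is known to do so poorly. The ganglion also holds satellite glia, Schwann cells, macrophages, endothelium and fibroblasts, so in these bulk samples fewer cells of a type and less acetylation per cell cannot be told apart.

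The bases before the start site of genes found in 1 list only are shown first, because the promoters of the SNA-only and DCA-only genes differed in CpG content. For each injury these are the 3 strongest named genes with a RefSeq start site whose window lay outside any other gene. Each sequence is the 250 bases before the start, 5′ to 3′ on the strand of the gene, from RefSeq, build GRCm38.p6, with CG dinucleotides in capitals. The windows of Tnfsf10 (chr3:27316827-27317076, + strand, 6 CG), Scn2a (chr2:65668436-65668685, + strand, 9 CG, the second of its 2 listed starts) and Lrrc74b (chr16:17561248-17561497, - strand, 13 CG) belong to genes with a start-site peak in SNA only.
Tnfsf10: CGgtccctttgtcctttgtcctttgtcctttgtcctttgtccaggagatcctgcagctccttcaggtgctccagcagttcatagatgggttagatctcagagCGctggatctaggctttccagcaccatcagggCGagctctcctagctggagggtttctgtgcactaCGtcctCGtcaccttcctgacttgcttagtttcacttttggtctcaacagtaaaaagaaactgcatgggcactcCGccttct
Scn2a: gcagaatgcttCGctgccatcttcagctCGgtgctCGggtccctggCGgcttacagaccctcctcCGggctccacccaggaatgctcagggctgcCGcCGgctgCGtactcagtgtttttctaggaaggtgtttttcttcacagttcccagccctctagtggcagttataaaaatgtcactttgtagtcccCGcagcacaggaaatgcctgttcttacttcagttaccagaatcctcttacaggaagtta
Lrrc74b: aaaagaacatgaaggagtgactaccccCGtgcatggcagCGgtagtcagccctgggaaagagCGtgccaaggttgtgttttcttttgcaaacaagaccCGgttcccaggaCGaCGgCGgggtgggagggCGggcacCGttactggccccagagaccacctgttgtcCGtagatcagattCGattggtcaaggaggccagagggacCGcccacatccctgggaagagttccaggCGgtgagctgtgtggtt
The windows of Atl2 (chr17:79896124-79896373, - strand, 21 CG), Ube2e1 (chr14:18331845-18332094, - strand, 23 CG) and Wdr41 (chr13:94976094-94976343, + strand, 13 CG) belong to genes with a start-site peak in DCA only.
Atl2: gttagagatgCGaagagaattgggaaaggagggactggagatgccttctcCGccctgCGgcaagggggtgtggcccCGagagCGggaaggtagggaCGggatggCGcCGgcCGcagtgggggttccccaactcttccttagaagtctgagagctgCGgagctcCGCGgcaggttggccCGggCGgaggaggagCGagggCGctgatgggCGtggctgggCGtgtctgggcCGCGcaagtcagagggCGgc
Ube2e1: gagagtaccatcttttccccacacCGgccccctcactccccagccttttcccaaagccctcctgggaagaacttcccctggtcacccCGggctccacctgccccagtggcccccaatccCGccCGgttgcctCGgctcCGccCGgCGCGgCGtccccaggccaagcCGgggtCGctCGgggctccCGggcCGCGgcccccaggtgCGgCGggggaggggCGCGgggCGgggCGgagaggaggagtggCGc
Wdr41: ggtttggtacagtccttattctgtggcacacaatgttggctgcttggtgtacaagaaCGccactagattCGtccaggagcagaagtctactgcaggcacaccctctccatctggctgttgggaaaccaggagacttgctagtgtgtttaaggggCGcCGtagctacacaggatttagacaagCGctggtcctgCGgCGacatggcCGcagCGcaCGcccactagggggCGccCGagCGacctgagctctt

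Most H3K9ac peaks of the SNA list were also in the DCA list, and fewer of the DCA list were in the SNA list. Of the SNA peaks 28.3% (95% interval 27.9 to 28.6) had no overlapping DCA peak, which is 21098 peaks, and of the DCA peaks 45.6% (45.2 to 45.9) had no SNA peak, which is 40851. With the DCA list cut to its strongest 74652 peaks, so that both lists had equal size, the shares were 33.7% and 40.9%. The 2 control lists, of nearly equal size, gave shares of the same order: 40.8% of Lam peaks had no Sham peak and 43.2% of Sham peaks no Lam peak. Shares of unmatched peaks in the injury lists therefore lay close to, or below, the background in the controls, except in the DCA list with all peaks. The rule of 1 bp put few peaks near its limit: 822 SNA peaks overlapped a DCA peak by 1 to 50 bp and 841 missed the nearest DCA peak by less than 50 bp.

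The lists differed in strength as well as in number. The deposited −log10 p, the authors' value for each peak, had a median of 4.73 in SNA and 7.0 in DCA, while the deposited fold enrichment over background had medians of 3.44 and 3.30. The background pile-up recovered from the deposited values, in the scaled units of each list, was 2.08 in SNA, 5.20 in DCA, 1.68 in Sham and 3.04 in Lam. At the same fold a DCA peak therefore had a higher −log10 p. Each list had its own scale factor, 0.40, 0.92, 0.32 and 0.61 in the same order. Before scaling the backgrounds were 5.20, 5.67, 5.33 and 4.98 reads, so the lists differed in the factor and little in these reads. After the DCA values were brought to the scaled SNA background, called matched depth below, 30.2% of SNA peaks and 44.2% of DCA peaks were unmatched. The part of the read depth and of the scale factor in the remaining difference was not tested.

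Nearly every strong SNA peak was matched. When each list was cut into 20 bins of equal number by strength, 0.241% of the strongest SNA bin had no DCA peak, against 7.18% of the strongest DCA bin without an SNA peak. The strongest bin of the Sham list had 1.23% without a Lam peak, and that of the Lam list 4.22% without a Sham peak.

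**Figure D1:**
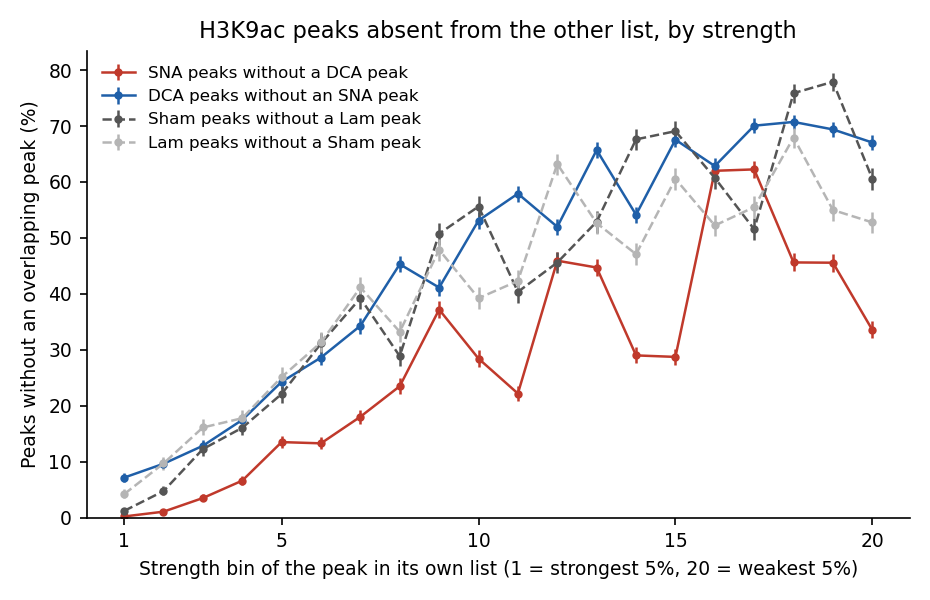
Percent of H3K9ac peaks with no overlapping peak in the compared list (y axis), by strength bin of the peak in its own list (x axis, 20 bins of equal number, 1 the strongest); points are 1 pooled list each and bars are 95% Wilson intervals for counting error. The SNA line starts at 0.241% and the DCA line at 7.18%, and in bin 5 the SNA line stands at 13.5% while the other 3 lines lie between 22.1% and 25.1%.

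Among the 5000 strongest peaks of each list, 20 SNA peaks (0.400%, 0.259 to 0.617) had no DCA peak and 363 DCA peaks (7.26%, 6.57 to 8.01) had no SNA peak. The 363 DCA peaks were mostly present without any axotomy: 317 of them (87.3%) overlapped a Lam peak, 194 (53.4%) a Sham peak, 178 both, and 30 (8.26%) neither. Of the 20 SNA peaks 13 overlapped a Sham peak and 10 a Lam peak. Of the same 5000 DCA peaks, 383 (7.66%) were absent from the Sham list and 116 (2.32%) from the Lam list. The strong DCA peaks thus met their match less often in both sciatic lists than in the laminectomy list. Of the 5000 SNA peaks, 113 (2.26%) were absent from the Sham list, 195 (3.9%) from the Lam list and only 20 from the DCA list. The strong SNA peaks thus met their match most often in a list of the other surgical site. The surgery, the preparation and the sequencing of these pooled lists cannot be told apart.

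The single strongest DCA-only peak (−log10 p 45.5, fold 10.4, chr17:79895004-79896033) lay 90 bp from the start site of Atl2, inside the gene, which encodes an atlastin GTPase of the endoplasmic reticulum, and the next SNA peak was 123022 bp away. The others of the strongest 5 lay over the start sites of Ube2e1, Clptm1, Vps4b and Wdr41, with −log10 p between 43.9 and 45.0, and all 4 overlapped a peak in both Lam and Sham. For Clptm1 and Vps4b the nearest SNA peak was only 275 and 185 bp away. The strongest SNA-only peak (−log10 p 13.9, fold 6.95, chr2:49805033-49805879) lay within Lypd6b, 17693 bp from the nearest start site, and a DCA peak began 325 bp from it. The other 4, with −log10 p of 11.9 to 12.9, lay near Map2k3, Ints9, Oacyl and Shf, and a DCA peak lay 154 to 884 bp from each. The strongest SNA-only peaks were thus all next to a DCA peak, and those of DCA lay at 185 bp to 123022 bp from an SNA peak.

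Peaks of 1 list lay away from start sites more often than shared peaks, and those of SNA more so than those of DCA. Within 1 kb of a start site were 6.15% of SNA-only peaks (5.83 to 6.48) and 28.2% of the shared SNA peaks, against 11.5% of DCA-only peaks (11.2 to 11.8) and 27.3% of the shared DCA peaks. Inside a gene but away from its start were 67.2% of SNA-only and 61.7% of DCA-only peaks. The median distance to a start site was 23238 bp for SNA-only and 17166 bp for DCA-only peaks. Peaks of 1 list were also narrow, with a median width of 315 bp in SNA and 399 bp in DCA, where shared peaks had 528 and 729 bp. At equal list sizes the shares within 1 kb of a start were 6.39% and 13.3%.

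**Figure D2:**
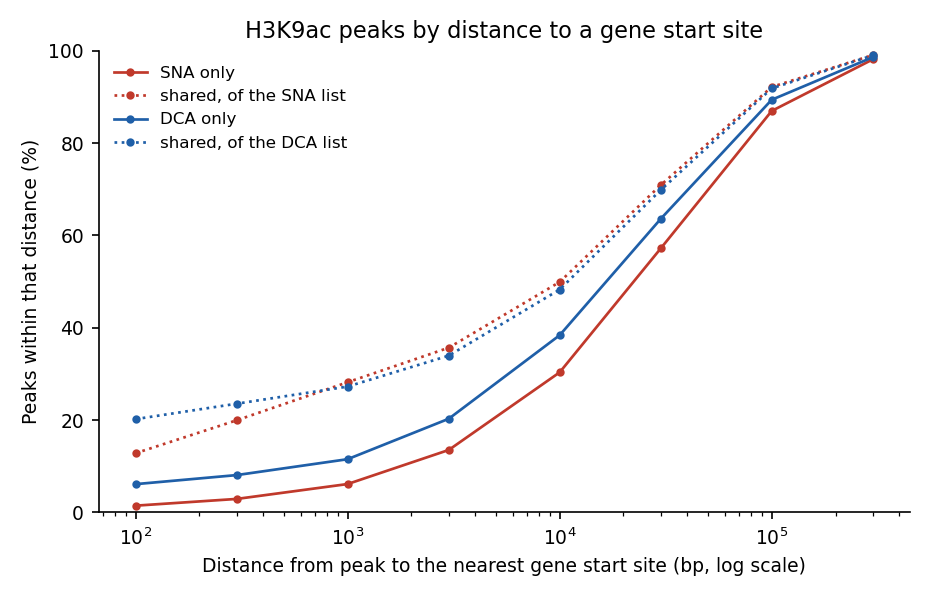
Cumulative percent of peaks (y axis) within a given distance of the nearest gene start site (x axis, bp, log scale), for peaks of 1 injury list only (solid) and shared peaks (dotted) of the SNA and DCA lists. At 1000 bp the SNA-only line stands at 6.15%, the DCA-only line at 11.5%, and both dotted lines at 27.3% to 28.2%.

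Readouts that did not enter the choice of peaks also set shared peaks apart. Open chromatin, as an ATAC peak of the SNA list, lay at 26.3% of SNA-only and 28.1% of DCA-only peaks, against 51.1% and 52.9% of the shared peaks of either list. H3K27ac, the acetylation typical of active enhancers, had an SNA peak at 30.8% of SNA-only and 25.8% of DCA-only peaks, against 73.6% and 74.5% of shared peaks. Set against the H3K27ac list of DCA, the shares were 10.2% and 13.6%. SNA-only H3K9ac peaks were thus more often at an H3K27ac peak of the SNA list than DCA-only peaks were, and less often at one of the DCA list. Of the SNA-only peaks 19.7% overlapped a Sham peak and 15.4% a Lam peak, and of the DCA-only peaks 11.9% and 13.7%.

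At gene start sites the lists were unequal. Of 21887 protein-coding genes, 10974 had a start-site peak in both injury lists and 8485 in neither. The SNA list alone had one at 286 genes, 1.31% of all genes, and the DCA list alone at 2142 genes, 9.79%. Among the 13402 genes with a start-site peak in either list the shares were 2.13% and 16.0%. At equal list sizes the numbers were 400 (1.83%) and 1970 (9.0%). With all peaks the control lists split more evenly, with 1165 genes in Lam only (5.32%) and 954 in Sham only (4.36%). On the log2 scale, the number of SNA-only genes over that of DCA-only genes was -2.91 (-3.08 to -2.73), where Lam-only over Sham-only was 0.29 (0.16 to 0.41). The control ratio moved to 1.36 with q of at most 0.05 and to 2.76 with −log10 q of at least 5, settings that gave -3.50 and -6.97 for the injuries.

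The SNA-only start-site peaks were weak and those of DCA only were of all strengths. The median −log10 p at the 286 SNA-only genes was 4.20 (highest 11.3), and 3 of them held a peak among the 5000 strongest of the SNA list. At the 2142 DCA-only genes the median was 9.81 (highest 49.0), and 258 held a peak among the 5000 strongest of the DCA list. A peak of the other list lay within 5 kb of the start site, outside the window of 1 kb, for 112 of the SNA-only and 590 of the DCA-only genes.

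Many genes of 1 injury list had a start-site peak in a control list. Of the 2142 DCA-only genes, 505 (23.6%) had a peak in both Lam and Sham, 455 (21.2%) in Lam and not Sham, 242 (11.3%) in Sham and not Lam, and 940 (43.9%) in neither. Of the 286 SNA-only genes, 34 (11.9%) had a peak in both controls, 31 (10.8%) in Lam alone, 55 (19.2%) in Sham alone and 166 (58.0%) in neither. Genes of 1 injury list were thus found more often in the control of the same surgical site than in the other control. Genes with a peak in both injury lists were in both control lists in 86.2% of cases. An ATAC peak of the SNA list lay at the start site of 92.5% of the DCA-only and 75.2% of the SNA-only genes, against 96.7% of genes in both lists and 31.5% of genes in neither. An H3K27ac peak of the SNA list lay there in 43.2%, 28.3%, 93.0% and 0.919% in the same order.

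**Figure D3:**
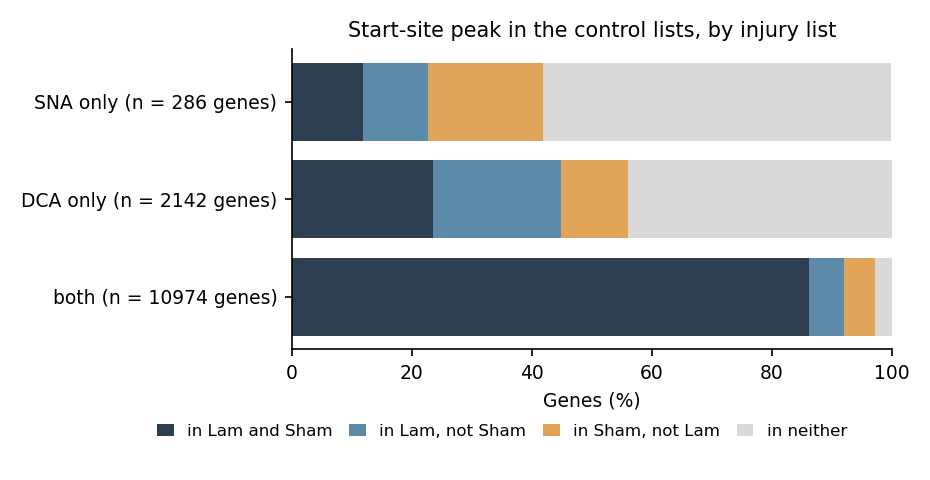
Percent of genes (x axis) with a start-site peak in both control lists, in Lam alone, in Sham alone or in neither, for genes with a peak in SNA only (286), DCA only (2142) and both injury lists (10974). Of the genes in both lists 86.2% were in both controls, against 11.9% of the SNA-only and 23.6% of the DCA-only genes.

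The strongest DCA-only start sites mostly had a peak in both control lists as well, with lower values. Atl2 had a −log10 p of 45.5 in DCA, 7.28 in Lam, and no start-site peak in Sham or SNA. Ube2e1, a ubiquitin-conjugating enzyme, had 45.0 in DCA, 10.2 in Lam, 6.87 in Sham and no start-site peak in SNA. The peak shared by H2-DMa, which loads peptides onto class II molecules, and Brd2, a bromodomain protein that binds acetylated histones, had 44.9, 7.11 and 5.95 in DCA, Lam and Sham. These start sites were thus marked in at least the laminectomy list and had no peak in the SNA list. Dyrk1a, a protein kinase with roles in neuronal development, had 41.2 in DCA, 5.14 in Lam and 5.31 in Sham. Crtc3, a coactivator of the cyclic AMP-responsive factor CREB, had 37.8, 6.77 and 3.76. Kdm5b, a demethylase of histone H3 lysine 4, had 35.6, 4.59 and 4.39. The remaining 6 of the 12, which were Wdr41, Scyl3, Atxn1, Pld2, Smap2 and Akap13, had a −log10 p of 36.0 to 43.9 in DCA, and of these only Akap13 had no Sham peak. An SNA peak lay within 5 kb, though not within 1 kb, of the start sites of Ube2e1, H2-DMa, Wdr41, Scyl3, Dyrk1a, Smap2 and Kdm5b. Values from lists of different scaled background are set side by side here and show no change in level.

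The strongest SNA-only start sites had lower values, in a list with a lower scaled background. The peak shared by the divergent genes Aida and Brox had a −log10 p of 11.3 in SNA and 3.08 in Sham, and there was none in Lam or DCA. Tnfsf10, which encodes the death ligand TRAIL, had 9.75 in SNA, 5.80 in Sham and 5.85 in Lam. Scn2a, the sodium channel Nav1.2, had 7.96 in SNA, 3.45 in Sham and 4.74 in Lam. The peak of Scn2a lay 65 bp beyond its inner listed start site. Tnfsf10, Scn2a and Aida had no DCA peak within 5 kb. The remaining 9 were Lrrc74b (shared with the purine receptor gene P2rx6), Ccdc115 (shared with Imp4), the histone genes H2bu2 and H1f1, the claudin gene Cldn34c1, Glb1l2, H2-T23 (a nonclassical class I molecule), Micalcl and the ribosomal protein gene Rpl10, with −log10 p of 6.50 to 7.40. Of these 9, a DCA peak lay within 5 kb for Ccdc115, H2bu2, H1f1, H2-T23 and Micalcl. The peak of Glb1l2 was in neither control list, and each of the other 8 was in at least 1.

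Several gene classes of neuronal signalling held high shares of DCA-only genes. Of 40 voltage-gated sodium and calcium channel genes, 12 (30.0%) were in DCA only and 2 (5.0%) in SNA only, against 9.79% and 1.31% of all genes. The DCA-only genes included the calcium channel pore subunits Cacna1d (−log10 p 17.7), Cacna1a (13.8), Cacna1c (13.0) and Cacna1g (11.01). Cacna1a and Cacna1g had no listed start site. With listed start sites only, 7 genes of the class were in DCA only and 2 in SNA only. The SNA-only genes were Scn2a and Scn2b (4.15). Of the 19 channel genes of this class that were marked in either list, DCA only made up 63.2%, against 16.0% of all marked genes. Of 93 potassium channel genes, 23 (24.7%) were in DCA only, including Kcna3 (15.2), Kcnd3 (13.4), Kcng3 (12.7), Kcnj4 (12.7) and Kcnd1 (10.9), and 1 in SNA only, Kcne4 (2.86). Of 53 glutamate, GABA and glycine receptor genes, 12 (22.6%) were in DCA only and none in SNA only. Grik5 (24.7), a kainate receptor subunit, and Grin2d (20.7), an NMDA receptor subunit, were the strongest, and Gabbr1, Glrb and Grin2c were among the others. Among the 17 marked receptor genes DCA only made up 70.6%, and among the 50 marked potassium channel genes 46.0%.

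Release and guidance genes were split the same way. Of 74 synaptic vesicle release genes, 19 (25.7%) were in DCA only and none in SNA only. They included Vamp4 (27.7), Rims3 (20.2), Syt12 (13.4) and Rims1 (12.4), which act in vesicle docking and fusion, and all 19 held at equal list sizes. Of 79 axon guidance genes, 23 (29.1%) were in DCA only and 1 in SNA only, the ephrin receptor gene Epha4 (3.56). The DCA-only genes were led by Rtn4 (24.5), which encodes the myelin protein Nogo, the semaphorin co-receptor gene Plxna4 (22.1), and the guidance ligands Efna2 (21.8), Efna4 (20.2), Sema3f (18.3) and Efna3 (15.6). Other classes of neuronal genes lay nearer the 9.79% of all genes, or below it. In DCA only were 4 of 42 sensory neuron identity genes (9.52%) and 12 of 98 genes of axonal transport and the cytoskeleton (12.2%). Of 95 cadherin and protocadherin genes 5 (5.26%) were. Of the marked genes, DCA only made up 28.6% of 14, 15.2% of 79 and 11.4% of 44 in the same order, against 16.0% of all marked genes. Of the 42 sensory neuron identity genes 28 had no peak in either list. A peak in Lam or Sham was present for 1202 of all 2142 DCA-only genes, for 11 of the 23 guidance genes, 6 of the 19 release genes, 7 of the 23 potassium channel genes, 2 of the 12 sodium and calcium channel genes and 4 of the 12 receptor genes. Between the controls, 31 of the 339 genes in these 5 classes together were in Lam only and 21 in Sham only. Both shares were above those of all genes, 5.32% and 4.36%. Guidance genes had 11 and 9 of 79, and release genes 8 and 0 of 74. Between the injuries, 89 of the 339 (26.3%) were in DCA only and 4 (1.18%) in SNA only. At equal list sizes 76 were in DCA only and 5 in SNA only. DCA only then held 18 guidance, 19 potassium channel, 9 receptor and 11 sodium and calcium channel genes.

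Growth factor signalling genes were also in DCA only more often than all genes were. Of all genes 9.79% were in DCA only and 1.31% in SNA only. Of 54 genes of neurotrophin, GDNF, BMP and TGF-beta signalling, 13 (24.1%) were in DCA only and 1 (1.85%) in SNA only. In DCA only were the 13 described next. These 13 included the signal transducers Smad7 (26.4), Smad3 (22.0) and Smad2 (18.2), the receptor Acvr1 (25.1) and the ligands Tgfb2 (15.9) and Tgfb1 (10.9). Of 58 Wnt pathway genes, 13 (22.4%) were in DCA only and none in SNA only. Among the 13 were Fzd6 (15.9), Ctnnb1 (13.1), Tcf7 (12.3), Wnt10a (12.02), Wnt9a (11.2) and Wnt8a (11.1). Of the growth factor and Wnt genes named here, all but Smad2, Acvr1 and Wnt8a had an SNA peak within 5 kb of the start site. Where no SNA peak lay within 5 kb, DCA only held 7 growth factor genes and 6 Wnt genes. Of all genes it then held 1552, down from 2142. Of 33 cell cycle genes, 7 (21.2%) were in DCA only, such as Ccne1 (12.3), Mcm3 (11.4) and E2f1 (8.87), and 1 (3.03%) in SNA only, Ccna2 (5.72). The controls split these classes too. In Lam only and Sham only were 3 and 6 of the 54 growth factor genes and 7 and 5 of the 58 Wnt genes. Of the 33 cell cycle genes 4 and 8 were, against 5.32% and 4.36% of all genes.

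No gene in the class tied to axon regeneration was in SNA only. At the 1.31% of all genes, a class of this size can hold none. Of 40 regeneration-associated genes, 21 had a start-site peak in both injury lists and 14 in neither. In DCA only were 5 (12.5%, against 9.79% of all genes). The 5 were Plaur (10.2), Cckbr (7.0), Timp1 (6.82), Lif (4.35) and Npy (3.60), and Lif and Npy were lost at equal list sizes. With the 5000 strongest peaks of each list the class had 3 genes in SNA only and 2 in DCA only. Atf3, a stress-induced factor that marks axotomised neurons, had a −log10 p of 8.19 in SNA, 11.1 in DCA, 10.1 in Lam and 6.66 in Sham. Jun, a component of AP-1 that can pair with Atf3, had 15.6, 20.6, 7.56 and 9.32 in the same order. Both genes were in all 4 lists. Sox11, a transcription factor of growing axons, and Sprr1a, a small proline-rich protein, had no start-site peak in any of the 4 lists. Gap43, a growth cone protein, had none either, and 2 DCA peaks lay within 10 kb of the gene. Gal, the neuropeptide galanin, had a start-site peak in Sham only (4.19).

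Other injury classes lay nearer the 9.79% of all genes in DCA only than the neuronal signalling classes did. Of 27 ATF and AP-1 family factors, 23 were in both lists and 4 (14.8%) in DCA only, namely Maff (15.0), Cebpb (14.7), Batf3 and Batf. Of 30 immediate early genes, 5 (16.7%) were in DCA only, including Egr3 (20.2), Nr4a3 (14.1) and Ptgs2 (7.52). Of 27 genes of gp130 and STAT3 signalling, 4 (14.8%) were in DCA only, including the cytokine genes Clcf1 (25.3) and Il11 (11.1). None of these 3 classes had an SNA-only gene, which at the 1.31% of all genes can occur in classes of this size. Of 124 histone-modifying genes, 8 (6.45%) were in DCA only, led by Kdm5b, Kdm7a (32.4), Brd1 (29.5) and Chd7 (27.8), and 1 in SNA only, the deacetylase gene Hdac6 (4.93).

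Defining markers of the ganglion's cells were checked in each list. A start-site peak was present for 5 of 14 sensory neuron markers in SNA and 6 in DCA, for 10 of 11 markers of satellite glia and Schwann cells in both, for 4 of 7 endothelial markers in each and for 3 of 5 fibroblast markers in each. Of 8 macrophage markers, 1 (Spi1) had a peak in SNA and 2 (Spi1 and Csf1r) in DCA. Of 8 markers of other tissues none had a peak in either list. Prph was the neuronal marker found in DCA and not in SNA. The part of cell composition in the gene classes above was not tested.

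Histone genes, most of them replication-dependent copies in clusters, had more members in SNA only, 10 of 99 (10.1%, against 1.31% of all genes), than in DCA only, 2 (2.02%). These 10 genes shared 8 peaks and all 10 held at equal list sizes, led by H2bu2 (7.33), H1f1 (6.50), H4c11 (4.93) and H2ac19 (4.91). The copies are near-identical in sequence, so the placement of their reads is uncertain, and a DCA peak lay within 5 kb of 9 of the 10. With a window of 5 kb, or with −log10 q of at least 5, the class had more DCA-only than SNA-only genes. Of 86 collagen, laminin and integrin genes, 7 (8.14%) were in SNA only, including Col9a1 (4.20), Col6a1 (4.20), Itga2b (3.87), Itga11 (3.72), Col12a1 (3.50) and Col4a6 (3.50). With all peaks more of that class, 12 (14.0%), were in DCA only, led by Itgb5 (23.9) and Col2a1 (13.0). At equal list sizes the numbers were the same, 8 in SNA only and 8 in DCA only. Where the other list had no peak within 5 kb, they were 3 and 9. Of 20 endothelial genes, 3 were in SNA only (Esam, Vwf and Pecam1) and 3 in DCA only (Sox18, Flt1 and Robo4), and with q of at most 0.05 the SNA-only number was 1. At equal list sizes 4 endothelial genes were in SNA only and 3 in DCA only. With listed start sites only, 0 endothelial genes were in SNA only and 2 in DCA only.

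Genes that every cell uses were mostly in both lists. Ribosomal protein genes had 76 of 83 in both lists and 2 (2.41%) in DCA only, mitochondrial ribosome genes 75 of 78 and 2 (2.56%), genes of oxidative phosphorylation 89 of 97 and 3 (3.09%), and splicing genes 102 of 108 and 5 (4.63%). Proteasome and ubiquitin genes had 109 of 129 in both lists and 12 (9.3%) in DCA only, and heat shock and chaperone genes 74 of 87 and 8 (9.2%), close to the 9.79% of all genes. At the other end, of 1110 olfactory receptor genes 1 had a start-site peak in either list.

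**Figure D4:**
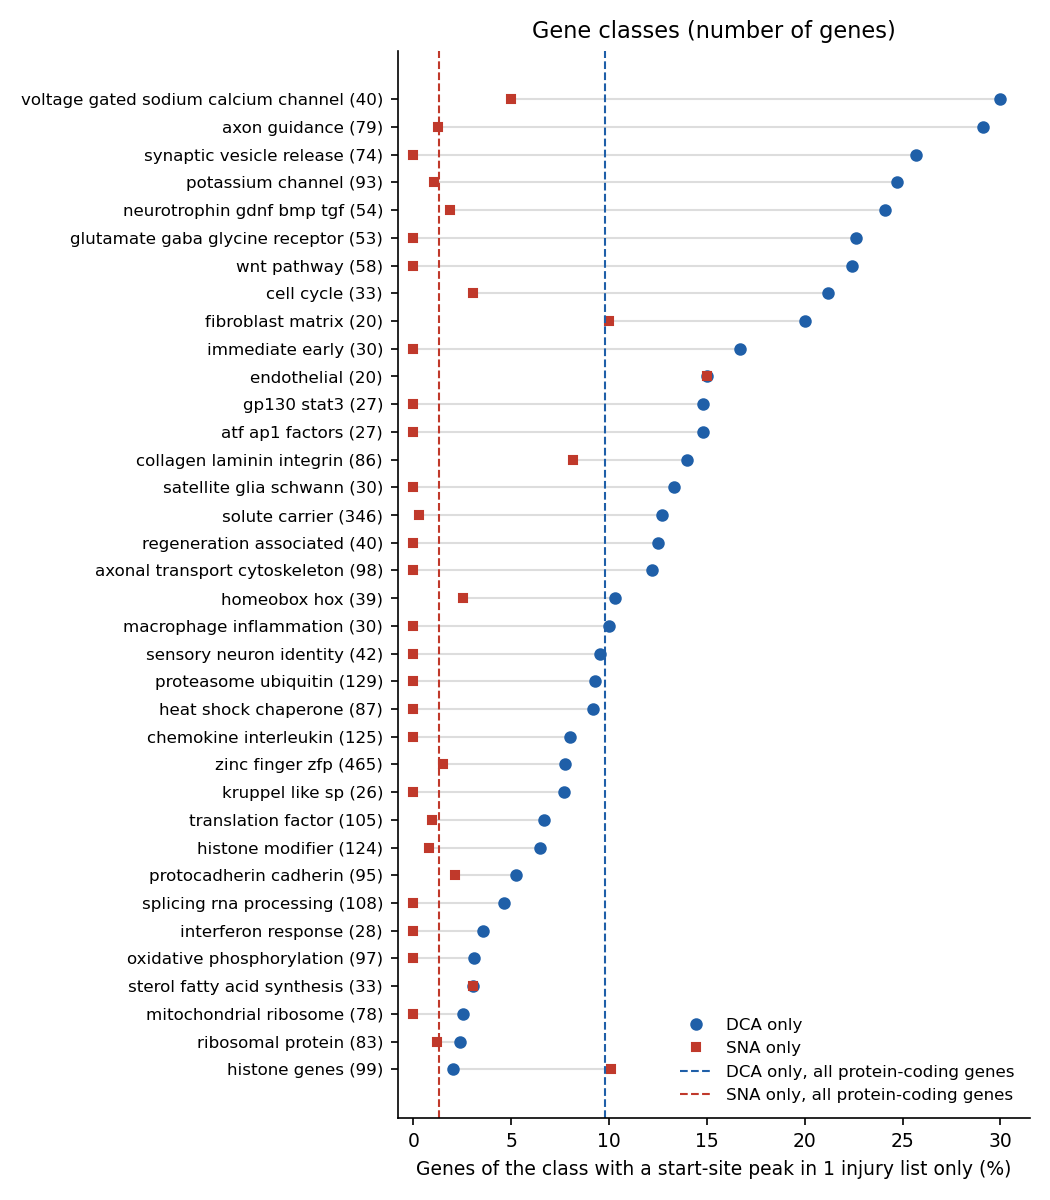
Percent of genes in each class (x axis) with a start-site H3K9ac peak in DCA only (blue circles) or SNA only (red squares), for the 36 classes with at least 10 genes marked in either list; the number of genes is in parentheses and dashed lines are all protein-coding genes, 9.79% and 1.31%. Sodium and calcium channels stand at 30.0% in DCA only and histone genes at 10.1% in SNA only.

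Promoter sequence, which played no part in choosing the genes, differed between the 2 groups. RefSeq promoter windows of 250 bases before and 50 bases after the first listed start were found for 17492 genes, among them 233 of the 286 SNA-only and 1626 of the 2142 DCA-only genes. The observed number of CpG dinucleotides over the number expected from the base content had a median of 0.33 in SNA-only genes, 0.73 in DCA-only genes, 0.77 in genes of both lists and 0.19 in genes of neither. A ratio of at least 0.6, a usual mark of a CpG island, was found in 23.6%, 66.7%, 74.3% and 10.9% of them. The GC content had medians of 54.3%, 64.3%, 61.0% and 47.0%. The SNA-only promoters thus lay between those of unmarked genes and those of genes in both lists, and the DCA-only promoters were the richest in GC. At equal list sizes the shares with a ratio of at least 0.6 were 27.6% and 68.6%, and with genes of 1 listed start 26.4% and 69.1%. The controls differed in the same measure by less: 51.2% of 725 Sham-only and 72.7% of 929 Lam-only genes had that ratio.

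**Figure D5:**
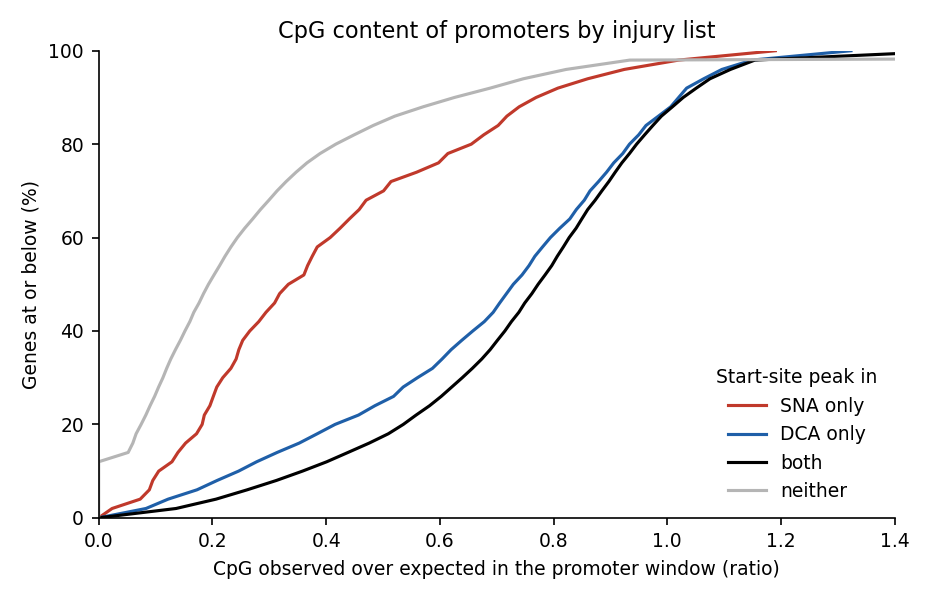
Cumulative percent of genes (y axis) by the ratio of observed to expected CpG in the 300 bases around the start site (x axis), for genes with a start-site peak in SNA only, DCA only, both lists or neither. The medians are 0.33, 0.73, 0.77 and 0.19, and the SNA-only line lies near that of genes in neither list.

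Short motifs in the same windows were counted on both strands. The GC box GGGCGG was in 68.5% (66.2 to 70.7) of DCA-only, 36.5% (30.6 to 42.8) of SNA-only, 66.0% of both-list and 46.3% of all promoters. The ETS motif CCGGAAG was in 8.49% of DCA-only and 6.44% of SNA-only promoters, against 19.6% of both-list and 11.9% of all promoters. The NRF1 motif was in 6.15%, 1.29%, 11.3% and 6.6%, in the order DCA only, SNA only, both and all. The TATA box TATAAA was in 7.13%, 11.6%, 6.40% and 13.3%. The AP-1 motif TGANTCA was in 4.49% (3.59 to 5.61), 7.30% (4.60 to 11.4), 4.51% and 7.08%, and the cyclic AMP response motif TGACGTCA in 1.97%, 1.29%, 3.54% and 2.34%. The intervals of the 2 groups overlapped for AP-1, ETS and the cyclic AMP response motif, and did not overlap for the GC box and the NRF1 motif (5.08 to 7.42 in DCA only, 0.439 to 3.72 in SNA only). Between the controls the intervals for the GC box and the NRF1 motif did not overlap either. The GC box was in 71.4% (68.4 to 74.2) of Lam-only and 58.1% (54.4 to 61.6) of Sham-only promoters. The NRF1 motif was in 10.1% (8.34 to 12.2) and 4.14% (2.91 to 5.85) in the same order. The GC box, the ETS motif, the NRF1 motif and the cyclic AMP response motif each contain a CG.

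Long genes carried peaks of both kinds side by side. The most SNA-only peaks in a gene and 10 kb on either side were 48 in Syn3, a synapsin gene of 450 kb, which also held 42 DCA-only peaks. Prkca, a protein kinase C gene, held 46 SNA-only and 38 DCA-only peaks. Gse1 held the most DCA-only peaks, 80, with 43 SNA-only peaks, and Msi2, which encodes an RNA-binding protein, 61 and 40. Cux1, Arhgap26 and Prkce held 66, 63 and 54 DCA-only peaks. The number of DCA peaks over SNA peaks in the gene and 10 kb on either side was 1.18 over all genes. It was 1.74 for sodium and calcium channel genes (162 against 93), 1.41 for the receptor genes, 1.28 for potassium channel genes, 1.11 for guidance genes, 1.08 for release genes and 0.969 for histone genes (188 against 194).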

How the data were processed

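Chromatin immunoprecipitation for H3K9ac was compared between 4 surgeries. The authors deposited 1 narrow peak list per surgery, made from both ChIP samples pooled, per the labels' design text, in build mm10, per the submitters' processing notes. The aligner and the peak caller are not given in the sources used here. Fold enrichment, as deposited, is a ratio over background on a linear scale, and the deposited −log10 p and −log10 q are the authors' values for each peak. They were used to rank and filter peaks within a list and to describe them. Where values of different lists are set side by side, the lists had different scale factors, and no change in level was inferred. Peak names carry a rank by strength. Before ranks were counted, lines with the same coordinates were reduced to the strongest, and lines outside the autosomes, X and Y were left out. In SNA 27329 ranks were then missing (the lowest 12310, beside a −log10 p of 7.30) and in DCA 83792 (the lowest 15467, beside 12.4). Some missing ranks were thus stronger than most kept peaks. How many were already missing from the lists as deposited was not counted, and any rule for their removal is not stated here.

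Lists were compared in Python 3.11.15 with numpy 2.4.6, pandas 2.3.3 and scipy 1.17.1, and the overlap, gene and depth functions were tested on simulated data. The scaled pile-up of each peak was recovered from fold and −log10 p as a whole number of reads times 1 factor per list. The tolerance was 0.003 in −log10 p, which matched at least 99.99% of peaks in each list. Start sites came from RefSeq (GRCm38.p6). For 17492 of 21887 protein-coding genes a start site was listed, and either gene end stood in for the other 4395. Among these were Cacna1a, Cacna1g, Plxna4, Sema3f, Smad7, Smad2, Clcf1, Egr3, Syt12, Fzd6 and Chd7. For the named genes, the 12 per injury with the highest −log10 p were taken among genes in that list only with all peaks and at equal sizes, without predicted genes and with 1 gene per peak. In each class up to 6 genes per direction were named by the same order, and 6 regeneration genes and the 5 strongest peaks and 5 genes with most peaks per direction were added. The members and the 40 gene classes were chosen with earlier results of these data known. Some genes that these rules select are not reported here.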

Additional observations from a re-analysis of the deposited data

How the results depend on the processing

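No paired analysis was possible because each list pools both replicates, and for the same reason no replicate could be left out. In every one of the 14 alternatives more genes were in DCA only than in SNA only, and the log2 ratio of the 2 gene numbers, -2.91 with all peaks, ran from -6.97 to -0.68. It was -2.30 at equal list sizes, -3.50 with q of at most 0.05, -6.97 with −log10 q of at least 5, -2.67 at matched depth, -0.68 with the 5000 strongest peaks, -2.69 with peaks at an ATAC peak, -3.22 with a window of 500 bp, -2.37 with the gene and 10 kb, -3.16 where the other list had no peak within 5 kb, and -2.59 with all 4 lists cut to the Sham size, an alternative added after seeing the data. The SNA-only gene number moved from 286 to 56 with −log10 q of at least 5, to 1833 with the 5000 strongest, to 174 with no other peak within 5 kb and to 457 with 4 equal lists. The DCA-only number moved from 2142 to 7018 with −log10 q of at least 5 and to 1191 with the gene and 10 kb.

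The shares of unmatched peaks depended on the setting, SNA first and DCA second: 33.7% and 40.9% at equal sizes, 27.1% and 49.7% with q of at most 0.05, 4.57% and 80.9% with −log10 q of at least 5, 63.8% and 69.9% with 50% reciprocal overlap, 14.0% and 29.9% when peaks within 1 kb also counted as shared, 30.2% and 44.2% at matched depth, 0.400% and 7.26% with the 5000 strongest, 31.8% and 43.3% at ATAC peaks, and 36.2% and 42.1% with 4 equal lists. A cut on q removes more of the SNA list, with its lower scaled background, by construction. For the shares of unmatched peaks, the 5000 strongest peaks of a list were set against the whole other list. For the gene counts both lists were cut to their 5000 strongest, so these are unlike comparisons. The 12 named SNA-only genes kept their state in 9 to 14 of 15 settings and the 12 DCA-only genes in 11 to 15, and none was ever in the other list only. Over the gene classes, 770 counts stayed within 1.5 times and 350 moved. With the 5000 strongest peaks more genes were in SNA only than in DCA only for 17 classes that did not have more with all peaks, among them ribosomal, mitochondrial ribosome, oxidative phosphorylation, splicing, regeneration-associated and cell cycle genes, and the cause was not tested. Sodium and calcium channel, potassium channel, receptor, guidance and release genes had more in DCA only in all 15 settings. All protein-coding genes together, zinc finger genes and histone-modifying genes did so too. The direction therefore does not set these classes apart from other genes.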
